A study of Mus musculus with 6 samples.

Results

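Unfolded protein response and heat shock genes were examined in colon tissue with tumors from mice with colitis-associated colon cancer (CAC). The set held 38 genes chosen by symbol from what is known of both pathways, 25 of the endoplasmic reticulum (ER) stress response and 13 of the heat shock response. They were carried by 75 of the 56605 gene probes of the array, and all 38 were measured well above background and entered the test, among 19087 genes tested in all. None of the 25 ER stress genes and none of the 13 heat shock genes passed an adjusted p of 0.05 between RG@M-γ-CD and PBS (limma, Benjamini-Hochberg over all genes tested, adjusted p = 1.0 for each). The same held for every gene tested, so that 0.00% of genes were called. Among the members, the inducible HSP70 genes Hspa1a and Hspa1b had the highest differences, and Trib3 and Chac1, a pair of targets of the transcription factor ATF4, had the lowest.

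When unfolded proteins gather in the ER, the sensors IRE1 (Ern1 and its gut form Ern2), PERK (Eif2ak3) and ATF6 are released from the chaperone BiP (Hspa5). IRE1 splices the mRNA of Xbp1, and spliced XBP1 and cleaved ATF6 raise ER chaperones and the machinery that returns misfolded proteins to the cytosol for degradation. PERK phosphorylates eIF2α, which lowers protein synthesis while translation of ATF4 rises, and ATF4 with CHOP (Ddit3) raises genes of amino acid supply and cell death. Unfolded proteins in the cytosol instead free the heat shock factor HSF1, which raises HSP70, HSP110, HSP40, HSP90 and small heat shock proteins. Goblet cells of the colon, which fold and secrete much mucin, depend on the ER branch.

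Male C57BL/6 mice aged 6 to 8 weeks received the carcinogen azoxymethane (AOM, 10 μg per g) and drinking water with 2% dextran sulfate sodium (DSS), and all 6 mice whose arrays were used carried tumors made in this way. The 3 treated mice were given RG@M-γ-CD by mouth, the kinase inhibitor regorafenib (RG) held in mannose-modified γ-cyclodextrin, at 30 μg of the complex or 10 μg of RG per g for 21 days, and the 3 controls were given PBS, with 14 days of observation after treatment. One Cy3 array was made per sample. All 10 colon epithelium markers were well above background on all 6 arrays, so the tissue label held, but the pieces were bulk colon with tumor, in which fewer cells of a type and less RNA per cell cannot be told apart. Nothing in the labels states the number of tumors in each piece.

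Some features of the 6 arrays stand before the results. RG@M-γ-CD replicates 1 to 3 and PBS replicate 1 lay in slide row 1, and PBS replicates 2 and 3 lay in slide row 2 of the same slide, so row and treatment are partly confounded. The study's clustered heat map also places RG@M-γ-CD replicate 1 with PBS replicates 2 and 3, and PBS replicate 1 with RG@M-γ-CD replicates 2 and 3, against the labels. The labels were kept, and values within row 1 and under the grouping of the heat map are given beside the results they touch. Between 49.6% and 55.2% of gene probes were well above background per array, and no gene spot was saturated. Levels are given as log2 intensity relative to the 75th percentile of gene probes on the array (0 on this scale), and differences are RG@M-γ-CD minus PBS on the log2 scale. Levels of different genes come from different probes and were not compared.

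Promoter sequences are shown for the members on which the results turn, since shared control elements define both pathways. The sequences are RefSeq promoters of build GRCm38.p6, from 250 bases before to 50 bases after the start of the gene, which were given for 21 of the 25 ER stress genes (not for Hyou1, Manf, Ern2 and Atf6) and for 9 of the 13 heat shock genes (not for Hspa8, Hsp90aa1, Hsp90ab1 and Hsf1). Hspa5 is shown as the central ER chaperone, at chr2:34771840-34772139 on the plus strand, with capitals on its match to the ER stress element (CCAAT, 9 bases, CCACG).
Hspa5: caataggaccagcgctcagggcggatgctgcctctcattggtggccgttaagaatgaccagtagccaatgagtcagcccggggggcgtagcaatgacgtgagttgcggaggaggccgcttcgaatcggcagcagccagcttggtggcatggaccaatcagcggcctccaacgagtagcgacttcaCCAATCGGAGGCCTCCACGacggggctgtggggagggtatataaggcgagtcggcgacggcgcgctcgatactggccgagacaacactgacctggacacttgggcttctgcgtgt

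The ER stress element, searched on both strands, was present in 39 of 32851 promoters (0.119%) and in 5 of the 21 ER stress genes with a promoter (23.8%), all 5 of them among the 9 ER chaperones and folding enzymes with one. It was present in 0 of the 14 promoters of heat shock genes. It includes the CCAAT box, which alone was present in 37.4% of all promoters and in all 9 of these ER chaperone promoters. The matches of the 5 genes are printed below with the fixed bases in capitals; a match that begins with CGTGG lies on the opposite strand. A match in this window is a description of letters and not a measured binding site.
Hspa5: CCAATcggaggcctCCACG
Hsp90b1, first match: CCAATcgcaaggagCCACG
Hsp90b1, second match: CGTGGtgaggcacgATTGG
Dnajc3: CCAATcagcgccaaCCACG
Creld2: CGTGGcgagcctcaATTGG
Pdia6: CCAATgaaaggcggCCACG

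The element read by ATF4 with its partners (TGATG, any base, AA) was present in 1304 promoters (3.97%) and in 4 of the 21 ER stress genes, Trib3, Chac1, Asns and Herpud1. The first 3 were listed here as targets of ATF4 and CHOP, and Herpud1 under ER-associated degradation. The strict heat shock element (GAA, TTC and GAA, or TTC, GAA and TTC, with 2 bases between each) was present in 198 promoters (0.603%), in 4 of the 14 promoters of heat shock genes and in none of the 21 of ER stress genes. These 4 were the promoters of Hspd1 and Hspe1, which are transcribed apart from a shared stretch of chromosome 1, and 2 of Hsph1. The windows of Hspd1 and Hspe1 overlap and hold the same bases, read from opposite strands. The 2 windows of Hsph1 also overlap and hold the same match. The 4 of 14 thus count the same bases more than once. The matches are printed to compare them with the values below, with the fixed bases in capitals.
Trib3, ATF4 element: TTaCATCA
Chac1, ATF4 element: TTgCATCA
Asns, ATF4 element: TGATGaAA
Hsph1, heat shock element: TTCtgGAAagTTC
Hspe1, heat shock element: TTCtaGAAccTTC

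Hspa1a and Hspa1b are neighbouring genes on the minus strand of chromosome 17, and their promoters are shown because the pair had the highest differences of the set. The windows lie at chr17:34972107-34972406 for Hspa1a and chr17:34959189-34959488 for Hspa1b. They were identical in 296 of 300 bases (98.7%), and capitals mark the 4 bases that differ. The strict heat shock element was in neither.
Hspa1a: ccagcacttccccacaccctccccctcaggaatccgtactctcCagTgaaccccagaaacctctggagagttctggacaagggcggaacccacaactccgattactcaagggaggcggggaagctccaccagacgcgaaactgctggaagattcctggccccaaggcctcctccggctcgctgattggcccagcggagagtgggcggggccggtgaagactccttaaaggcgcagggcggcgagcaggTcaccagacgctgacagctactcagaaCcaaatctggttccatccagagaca
Hspa1b: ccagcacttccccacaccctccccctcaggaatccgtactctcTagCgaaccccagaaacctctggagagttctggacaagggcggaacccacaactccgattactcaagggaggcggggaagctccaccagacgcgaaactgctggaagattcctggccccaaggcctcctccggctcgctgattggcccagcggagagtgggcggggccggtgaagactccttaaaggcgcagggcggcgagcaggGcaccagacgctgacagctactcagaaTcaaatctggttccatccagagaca

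The array carried a separate probe for each gene. The 60-base probes shared no run longer than 5 bases, and the sequence of each was on 1 probe only. The probes were compared with each other and not with the transcript of the other gene. Whether each probe measured its own gene alone was therefore not tested. The first 30 bases of each are given here; the scanner output places the Hspa1a probe at chr17:35106766-35106825 and a part of the Hspa1b probe at chr17:35093374-35093405, in build mm9 on the minus strand.
Hspa1a probe: agggaaactaaactgtctttcagttacttt
Hspa1b probe: taatctaagtaggttaaagatggtgtagtc

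The ER stress genes were mostly lower with RG@M-γ-CD by a small amount, within the spread of the arrays. Of the 25, 19 were lower and 6 higher, with a median difference of -0.24 and a range from -0.87 to 0.46. Of all genes tested, 52.8% were lower and the median difference was -0.01. The list was described and not tested as a set. One member, Trib3, passed an unadjusted p of 0.05 in the lower direction, where 1.33% of all genes did, and none passed it in the higher direction. On 2 members, Trib3 and Hyou1, all 3 RG@M-γ-CD arrays lay below all 3 PBS arrays, which held for 2.19% of all genes.

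**Figure D1:**
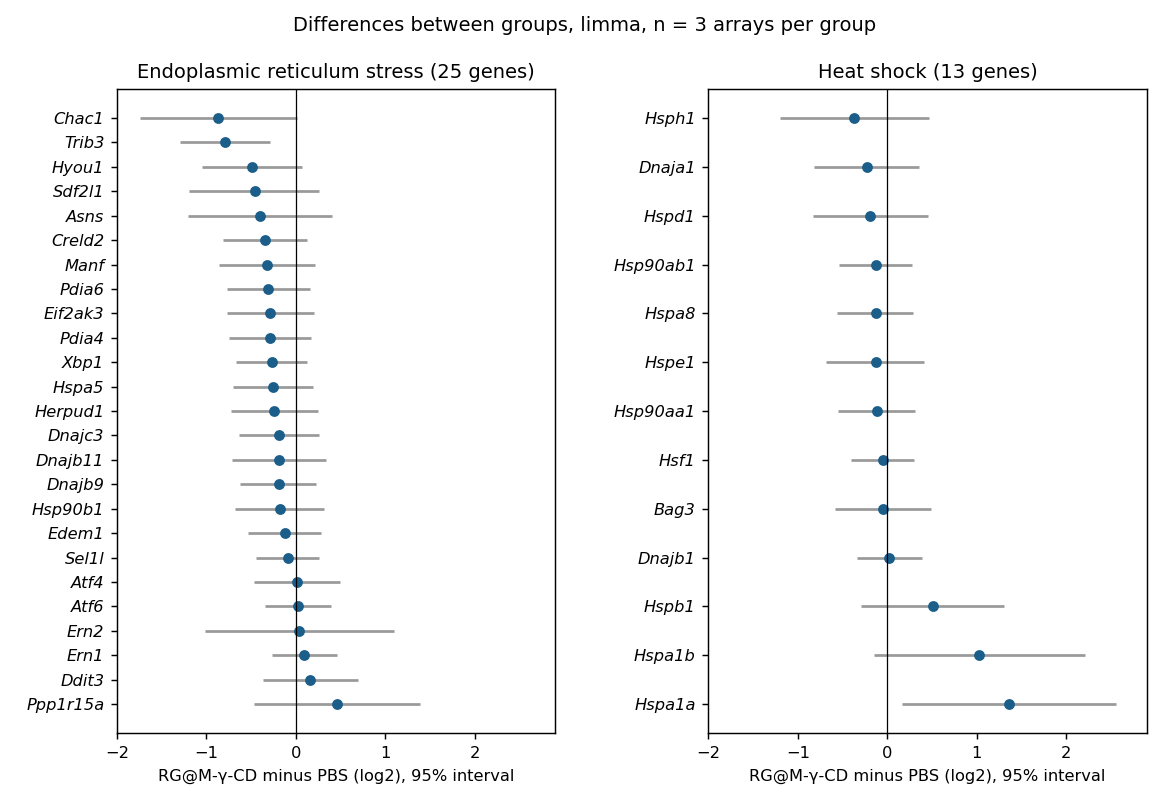
Difference between RG@M-γ-CD and PBS (x axis, log2) for the 25 ER stress genes (left) and the 13 heat shock genes (right); points are limma estimates and lines their 95% intervals, n = 3 arrays per group. The interval lies off 0 for Trib3 on the left and for Hspa1a on the right, and 19 and 9 of the points are below 0.

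The 11 ER chaperones and folding enzymes were all lower with RG@M-γ-CD, by 0.18 to 0.49 on the log2 scale with a median difference of -0.29, and none passed the test. Hspa5, which encodes BiP, the chaperone that holds the sensors inactive, had levels of 6.55, 6.48 and 6.59 in RG@M-γ-CD and 6.48, 6.95 and 6.96 in PBS. The group means were 6.54 ± 0.06 and 6.80 ± 0.27 (SD, n = 3), a difference of -0.26 (SE 0.18, 95% interval -0.70 to 0.19). PBS replicate 1 lay at or below the RG@M-γ-CD arrays, and PBS replicates 2 and 3 above them. The interval allows a fall to 0.614 of the PBS level and a rise to 1.14 of it.

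The same order of arrays was seen across the group. On all 11, PBS replicates 2 and 3 were above the 4 arrays of slide row 1, against 8.55% of all genes tested. This pattern was present in 16 of the 25 ER stress genes and in 6 of the 13 heat shock genes. PBS replicate 1, the control in row 1, was below the mean of the other 2 controls by 0.26 to 0.75 on the log2 scale for each of the 11. Within row 1, RG@M-γ-CD minus PBS replicate 1 was 0.06 for Hspa5, 0.21 for Hsp90b1 and between -0.08 and 0.17 for the other 9. The row as a block repeats this comparison, since PBS replicate 1 is the only control in row 1. In that fit the median of the 25 ER stress genes was 0.04 in place of -0.24, and 10 rather than 19 were lower. Relative to the mean of each gene, the median over all genes tested was -0.11 on PBS replicate 1. It was 0.06, -0.10 and 0.03 on RG@M-γ-CD replicates 1 to 3. Goblet cells are rich in ER chaperones, and all 9 goblet cell markers, each above background on all 6 arrays, also had a lower mean in RG@M-γ-CD. Their summed level was 9.14, 10.76 and 10.39 in RG@M-γ-CD and 9.84, 10.87 and 10.48 in PBS, so that PBS replicate 1 was again below the other 2 controls, while the groups overlapped. Within RG@M-γ-CD the order differed from that of the chaperones. The markers were lowest on replicate 1 and highest on replicate 2. The median of the 11 chaperones, relative to the mean of each gene, was -0.06 on replicate 1 and -0.23 on replicate 2. Among the other cell types, 3 of 6 plasma cell markers had a higher mean in RG@M-γ-CD and 3 a lower one. The summed level of these 6 was 5.59, 5.74 and 5.55 in RG@M-γ-CD and 5.16, 5.13 and 5.71 in PBS. The part of goblet cells or plasma cells in the levels of the chaperones was not tested. The lower level of ER chaperones in RG@M-γ-CD rested on the PBS arrays of row 2, and row and treatment cannot be told apart there.

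**Figure D2:**
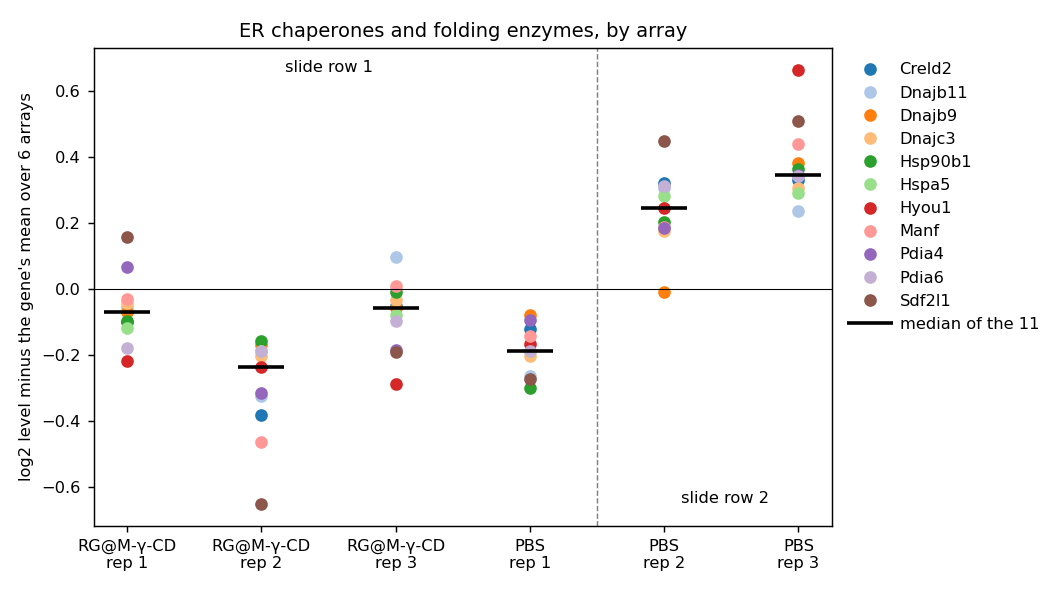
Levels of the 11 ER chaperones and folding enzymes on each array, as log2 level minus the mean of the gene over the 6 arrays (y axis); each color is a gene, black bars are medians of the 11, and the dashed line parts slide row 1 from slide row 2. Medians were -0.06, -0.23 and -0.06 in RG@M-γ-CD, and -0.19, 0.24 and 0.35 in PBS replicates 1 to 3.

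Hyou1, the ER chaperone ORP150 of the HSP110 class, had the largest difference of these 11. Its levels were -1.89, -1.91 and -1.96 in RG@M-γ-CD and -1.84, -1.43 and -1.01 in PBS, a difference of -0.49 (SE 0.23, unadjusted limma p of 0.0761, adjusted p of 1.0). The groups did not overlap, but PBS replicate 1 was within 0.08 of the mean of RG@M-γ-CD. Sdf2l1, a partner of ER chaperones that is strongly induced by ER stress, differed by -0.46 (SE 0.30), with its lowest level, 1.38, on RG@M-γ-CD replicate 2. Creld2 and Manf, secreted proteins induced by ER stress, differed by -0.35 and -0.32.

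The disulfide isomerases Pdia6 and Pdia4 differed by -0.31 and -0.29, and the ER HSP90 Hsp90b1 (GRP94) by -0.18. The J-domain co-chaperones of BiP, Dnajb9, Dnajb11 and Dnajc3, each differed by -0.19. The unadjusted p of the other 9 chaperones beside Hspa5 and Hyou1 was between 0.119 (Creld2) and 0.425 (Hsp90b1). Hsp90b1, Dnajc3, Creld2 and Pdia6, which carry the ER stress element printed above, were spread among the rest in size of difference.

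The sensors and transcription factors showed smaller differences. Of the 7, 2 were lower and 5 higher, with a median difference of 0.02 and a range from -0.29 to 0.16. Xbp1, whose product drives secretory capacity, had levels of 6.15, 6.07 and 6.01 in RG@M-γ-CD and 6.12, 6.47 and 6.45 in PBS, a difference of -0.27 (SE 0.17). As for the chaperones, PBS replicate 1 lay among the RG@M-γ-CD arrays. The array does not tell spliced from unspliced Xbp1.

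Eif2ak3, which encodes PERK, differed by -0.29 (SE 0.20) with the same order of arrays. Ern1 and Atf6 differed by 0.09 and 0.02, and ranged over only 0.30 and 0.33 across the 6 arrays. The several probes of Ern1 that were above background gave -0.07 and 0.09, and this was the only 1 of 21 members with several such probes whose probes differed in sign. Ern2, the IRE1 form of mucosal epithelium with a role in mucin folding, had a difference of 0.04 (SE 0.44) and the widest spread of the sensors. Its level was 4.44 on RG@M-γ-CD replicate 1, 6.26 on replicate 2 and 5.26 on replicate 3, and 5.15 to 5.45 in PBS. The summed level of the 9 goblet cell markers given above was likewise lowest on RG@M-γ-CD replicate 1, and their part in the spread of Ern2 was not tested.

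Atf4 mRNA had levels of 6.63, 7.27 and 6.92 in RG@M-γ-CD and 6.87, 6.91 and 7.0 in PBS. The difference was 0.01 (SE 0.20), with the highest and the lowest array both in RG@M-γ-CD. Control of ATF4 is largely in translation, which mRNA levels do not show. Ddit3, the gene of CHOP, had levels of -0.89, -0.23 and -0.70 in RG@M-γ-CD and -0.57, -0.83 and -0.91 in PBS, a difference of 0.16 (SE 0.22). The groups overlapped, and RG@M-γ-CD replicate 2 was the highest array for both genes.

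Among the 4 targets of ATF4 and CHOP, 3 were lower and 1 higher. Trib3, a pseudokinase that is induced by ATF4 and CHOP and binds AKT, had levels of -1.20, -1.16 and -1.03 in RG@M-γ-CD (mean -1.13 ± 0.09) and -0.26, -0.71 and -0.03 in PBS (mean -0.34 ± 0.35). All 3 RG@M-γ-CD arrays were below all 3 PBS arrays, and PBS replicate 1 of row 1 was among the high ones. The difference was -0.79 (SE 0.21, 95% interval -1.30 to -0.29), or 0.577 of the PBS level, with an unadjusted limma p of 0.00810 and an adjusted p of 1.0. Within slide row 1 it was -0.87. Without 1 array at a time it was between -0.64 and -0.98, and under the grouping of the heat map it was -0.17. With 3 arrays per group, 0.10 is the smallest two-sided p of an exact permutation test.

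Chac1, which degrades glutathione and is induced downstream of ATF4, had levels of -1.0, -2.15 and -1.25 in RG@M-γ-CD and -1.09, -0.45 and -0.27 in PBS. The difference was -0.87 (SE 0.36, unadjusted limma p of 0.0516, adjusted p of 1.0), the largest fall in size of the 38, but PBS replicate 1 lay between the RG@M-γ-CD arrays. It was -0.38 within row 1 and -0.52 with RG@M-γ-CD replicate 2 left out. Asns, which makes asparagine, differed by -0.40 (SE 0.34), and by 0.16 within row 1.

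Ppp1r15a, which encodes GADD34 and directs the dephosphorylation of eIF2α, was the exception. It had levels of 2.52, 3.86 and 2.63 in RG@M-γ-CD and 2.80, 2.59 and 2.25 in PBS, a difference of 0.46 (SE 0.39). The difference came from the second RG@M-γ-CD array, and was 0.03 with that array left out. That array also had the highest Atf4 and Ddit3 of the 6 and the lowest Chac1 and Asns. Ppp1r15a and Ddit3 ordered the 6 arrays in the same way, from RG@M-γ-CD replicate 2 as the highest to PBS replicate 3 as the lowest.

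**Figure D3:**
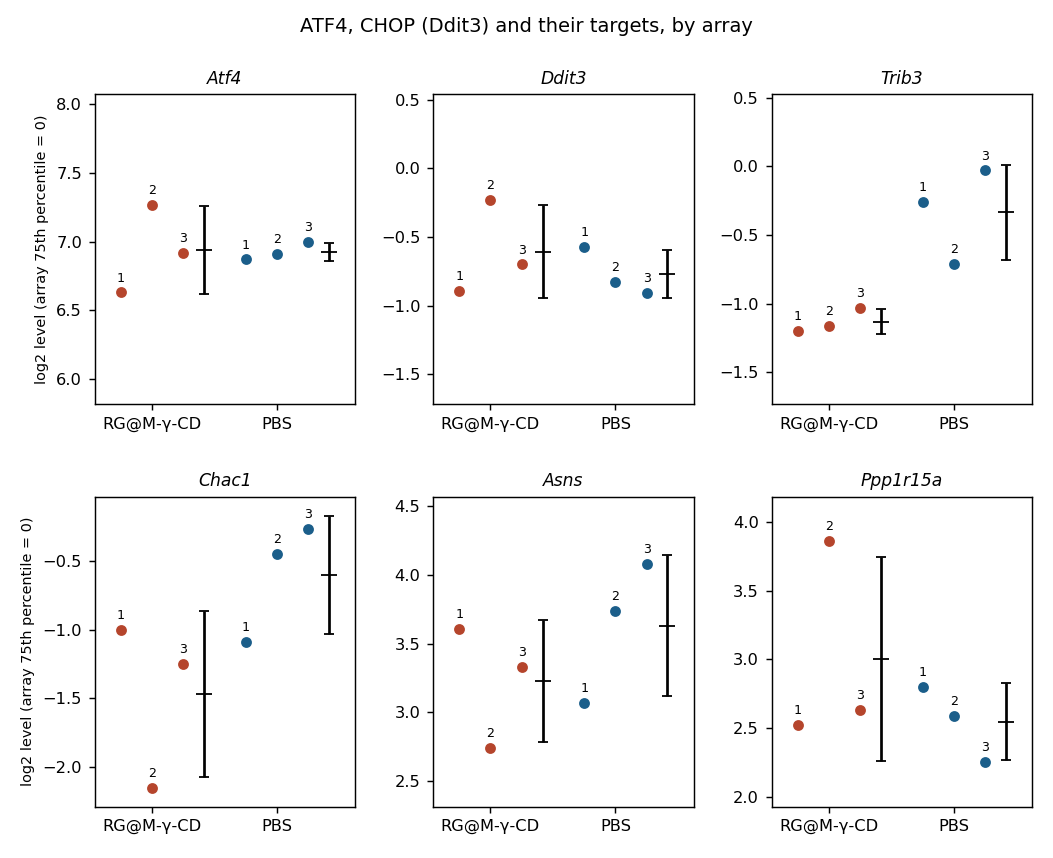
Log2 levels (y axis, array 75th percentile at 0, each panel spanning the same log2 range) of Atf4, Ddit3 and 4 of their targets; numbered points are replicates, and bars are the mean and SD of 3 arrays. Trib3 is the gene here whose groups do not overlap, and Ppp1r15a is highest on RG@M-γ-CD replicate 2 at 3.86.

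The 3 genes of ER-associated degradation had slightly lower means, and none of these directions held throughout. Herpud1, a membrane protein of the degradation complex, differed by -0.24 (SE 0.20), with a range from 3.71 to 4.40. Edem1, which draws misfolded glycoproteins out of the folding cycle, differed by -0.12, and Sel1l, the adaptor of the HRD1 ligase, by -0.09. With the slide row as a block Edem1 stood at 0.05 and Sel1l at 0.01, and under the grouping of the heat map Herpud1 stood at 0.04. The range of Sel1l over the 6 arrays was 0.24, the second narrowest of the 38 members after Dnajb1.

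Among the heat shock genes, Hspa1a, Hspa1b and Hspb1 had higher means in RG@M-γ-CD, and the other 10 differed by -0.37 to 0.02. Of the 13, 4 were higher and 9 lower, with a median difference of -0.12 and a range from -0.37 to 1.36. One of them, Hspa1a, passed an unadjusted p of 0.05 in the higher direction, where 0.864% of all genes did; none did so in the lower direction. It was also the only 1 whose 3 RG@M-γ-CD arrays were above all PBS arrays, which held for 2.38% of all genes. In either direction, 2 of the 38 members passed an unadjusted p of 0.05, against 2.20% of all genes.

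Hspa1a, an inducible HSP70, had levels of 2.69, 4.78 and 3.46 in RG@M-γ-CD (mean 3.64 ± 1.06) and 2.23, 2.29 and 2.33 in PBS (mean 2.28 ± 0.05). The PBS arrays of both slide rows lay within 0.10 of each other, and the spread was in RG@M-γ-CD. The difference was 1.36 (SE 0.50, 95% interval 0.16 to 2.56), or 2.57-fold (1.11 to 5.91), with an unadjusted limma p of 0.0323 and an adjusted p of 1.0. It was 1.41 within slide row 1, and 0.79 when RG@M-γ-CD replicate 2 was left out. Its sister gene Hspa1b had levels of 2.05, 4.10 and 3.13 in RG@M-γ-CD and 1.88, 2.15 and 2.15 in PBS. The order of the RG@M-γ-CD arrays was the same, and replicate 1 lay within the range of PBS. Whether the probes of these sister genes gave separate signals was not tested. The difference was 1.03 (SE 0.49, unadjusted limma p of 0.0766, adjusted p of 1.0), or 2.05-fold, and 0.53 without RG@M-γ-CD replicate 2.

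Hspb1, the small heat shock protein HSP27, had levels of 5.25, 6.04 and 6.56 in RG@M-γ-CD and 5.49, 5.47 and 5.37 in PBS. Replicate 1 was below PBS and replicates 2 and 3 above it, and the difference was 0.51 (SE 0.33, unadjusted limma p of 0.173, adjusted p of 1.0). HSP27 is abundant in muscle as well as in stressed cells. The summed level of 8 smooth muscle markers was 7.13, 9.75 and 10 in RG@M-γ-CD and 8.19, 8.01 and 8.17 in PBS; all 8 were above background on all 6 arrays, and all 8 had a higher mean in RG@M-γ-CD. The markers were thus low on RG@M-γ-CD replicate 1 and high on replicates 2 and 3, as Hspb1 was, while Hspa1a and Hspa1b were highest on replicate 2. Their part in the differences of Hspa1a, Hspa1b and Hspb1 was not tested.

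**Figure D4:**
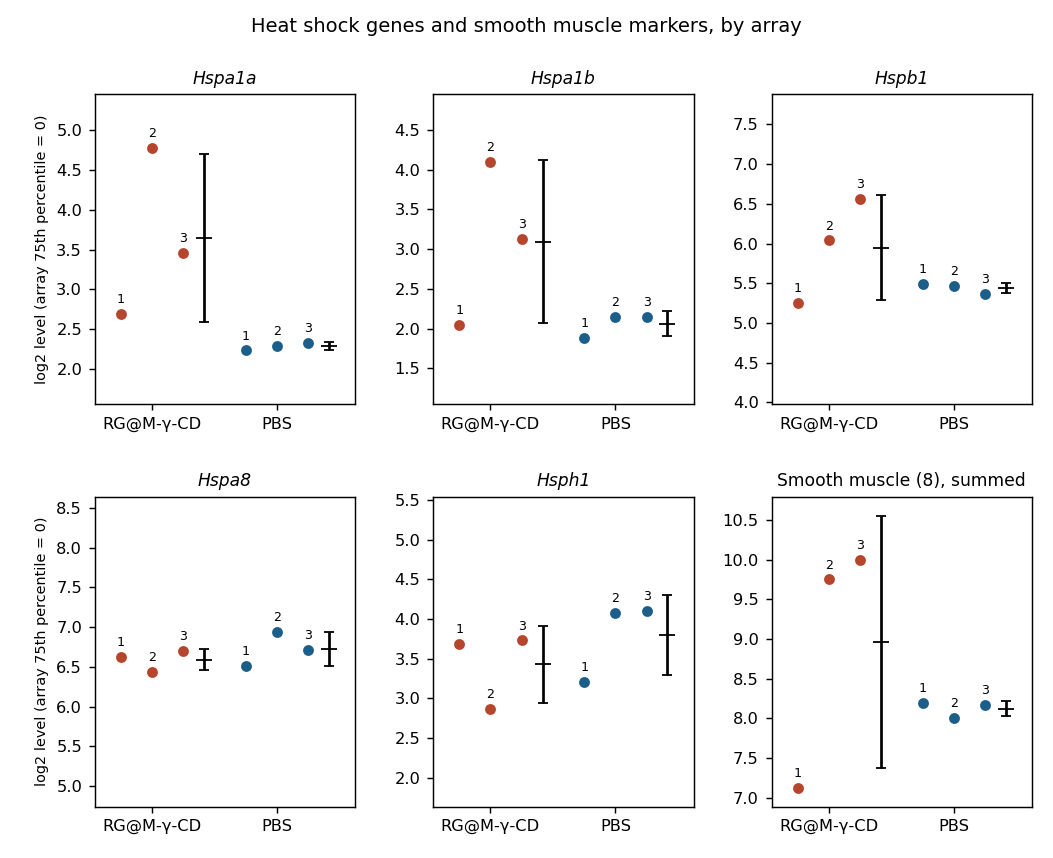
Log2 levels (y axis, array 75th percentile at 0, each panel spanning the same log2 range) of 5 heat shock genes and of the summed signal of 8 smooth muscle markers; numbered points are replicates, and bars are the mean and SD of 3 arrays. Hspa1a and Hspa1b peak on RG@M-γ-CD replicate 2 (4.78 and 4.10), and Hspb1 and the markers on replicate 3 (6.56 and 10).

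The other HSP70 genes did not follow the inducible pair. Hspa8, the constitutive HSC70, had levels of 6.62, 6.44 and 6.70 in RG@M-γ-CD and 6.51, 6.94 and 6.71 in PBS, a difference of -0.13 (SE 0.18, 95% interval -0.56 to 0.29). Hsph1, the HSP110 that resets HSP70, differed by -0.37 (SE 0.35), and its lowest level, 2.87, was on RG@M-γ-CD replicate 2, where Hspa1a was highest. PBS replicates 2 and 3, at 4.08 and 4.10, had the highest Hsph1. Within row 1 its difference was 0.22.

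HSP90 and the co-chaperones differed by -0.23 to 0.02, within the spread of the arrays. Hsp90aa1, the inducible cytosolic HSP90, had levels of 5.37, 5.70 and 5.44 in RG@M-γ-CD and 5.41, 5.75 and 5.73 in PBS, a difference of -0.12 (SE 0.18). Its constitutive partner Hsp90ab1 differed by -0.13 (SE 0.17). The HSP40 genes Dnaja1 and Dnajb1 differed by -0.23 and 0.02, and Bag3, which links HSP70 to autophagy, by -0.05. Dnajb1, a target of HSF1, varied by 0.22 over the arrays, Bag3 by 0.65, Dnaja1 by 0.83 and Hspa1a by 2.55.

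The mitochondrial chaperonins Hspd1 (HSP60) and Hspe1 (HSP10) fold imported proteins as 1 machine and share a promoter region. They differed by -0.19 (SE 0.27) and -0.13 (SE 0.23). Both were lowest on RG@M-γ-CD replicate 2, at 5.36 and 4.79, and ordered their other arrays in nearly the same way. Hsf1, the factor itself, had levels of 1.73, 1.61 and 1.80 in RG@M-γ-CD and 1.67, 1.76 and 1.87 in PBS, a difference of -0.05 (SE 0.15), and is controlled mainly at the protein. With the slide row as a block, which sets RG@M-γ-CD against PBS replicate 1 alone, 0 of the 13 heat shock genes were lower. Their median was 0.15, against -0.12 without the block. Over all genes tested, PBS replicate 1 held the lowest level of 23.0% and the highest of 8.60%. The share of all genes that were lower in this fit is not given here.

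PBS replicate 3 held the highest level of 20 of the 38 members and the lowest of 2, while over all genes tested it held the highest of 13.4% and the lowest of 7.29%. RG@M-γ-CD replicate 2 held the highest level of 7 members and the lowest of 16, beside the highest of 20.6% and the lowest of 36.7% of all genes. PBS replicate 1, on which the values within row 1 rest, held the highest level of 0 members and the lowest of 8. Over all genes it held the highest of 8.60% and the lowest of 23.0%. RG@M-γ-CD replicate 1 held the highest level of 1 member and the lowest of 9, beside 28.9% and 18.8% of all genes.

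Further genes of the same pathways gave no call either. Of 36 further genes of ER folding and degradation that were tested, 28 were lower (median difference -0.11). Of 31 further genes of the integrated stress response, 21 were lower (median -0.07), and of 38 further heat shock and cytosolic chaperone genes, 25 were lower (median -0.06). Of all genes tested, 52.8% were lower (median -0.01). PBS replicates 2 and 3 were above the 4 arrays of slide row 1 in 44.4%, 19.4% and 18.4% of the 3 lists, in that order. This held for 8.55% of all genes, and row and treatment cannot be told apart there. In each of the 3 lists 0 genes passed an adjusted p of 0.05 and 0 passed an unadjusted p of 0.05 (limma).

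Under the grouping of the study's heat map, with RG@M-γ-CD replicates 2 and 3 and PBS replicate 1 on one side and the other 3 arrays on the other, and with neither side named as treated, 0 of the 38 members passed the adjusted threshold, against 5 of 19295 genes tested. The first side minus the second was below 0 in 20 of 25 ER stress genes and 9 of 13 heat shock genes, beside 63.8% of all genes. At an unadjusted p of 0.05, passed by 16.5% of all genes, there were 4 ER stress genes, Sdf2l1 at -0.74, Asns at -0.76, Chac1 at -0.92 and Pdia4 at -0.40. There were also 4 heat shock genes, Hsph1 at -0.69, Hspd1 at -0.48 and Dnaja1 at -0.45, with Hspb1 at 0.67 (smallest adjusted limma p of the 38 members 0.297). Hspa1a and Hspa1b stood at 1.05 and 0.92 there, and the sides overlapped for both.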

How the data were processed

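Total RNA of 6 colon tissues with tumors was labeled with Cy3 and hybridized to one-color Agilent mouse arrays, 3 per group. The authors deposited scanner output from Agilent Feature Extraction 10.7.1.1, in which each spot has an intensity after background subtraction and detrending, without normalization between arrays, beside its mean signal and local background. They also deposited a table of log2 values, whose columns share 1 distribution (minimum 2.04, maximum 18.1); its 56605 matched probes followed their own array with r of at least 0.9991, and it served as an alternative. Samples were grouped by the deposited labels. Doses, times and ages are those of the study's methods.

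R 4.3.3 was used. Control and outlier spots were left out, spots of a probe were averaged as log2, and values were set relative to the 75th percentile of gene probes on the same array. Symbols came through the accession for 32994 probes (58.3%), and 23611 kept the file's name. Each gene was represented by its brightest probe well above background on all 3 arrays of a group, and tested with limma 3.58.1 (lmFit and eBayes), Benjamini-Hochberg adjustment and a threshold of 0.05. The fit was first tested on simulated data. The methods' t-test, other normalizations, filters, probe rules, slide row and replicate number as blocks, the grouping of the heat map and the loss of each array were alternatives. All 38 members are named, with values on every array where the unadjusted p was under 0.05, where groups did not overlap, and for the central genes of each pathway; Chac1, Ern2, Ppp1r15a and Hspb1 were added after their values were seen. The members, lists and tests were chosen with earlier results of these data known. The study gives 3 independent mice per group, while the labels give only sample numbers. The number of arrays limits the precision. Promoters were searched with Python 3.11.15. No genome annotation was used here, so exons are not given for probes.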

Additional observations from a re-analysis of the deposited data

How the results depend on the processing

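In all 17 alternatives 0 of the 25 ER stress genes and 0 of the 13 heat shock genes passed an adjusted p of 0.05; the smallest was 0.0984, for Hspa1b without RG@M-γ-CD replicate 1 (highest 1.0). Over all genes tested 0 passed, apart from 5 under the grouping of the heat map and, with 1 array left out, from 0 to 206 (206 when the first RG@M-γ-CD array was left out). The direction of 12 of 38 members never turned, among them Trib3 (-0.98 to -0.17), Hspa1a (0.79 to 1.84), Hspa1b (0.53 to 1.56) and Hspb1 (0.20 to 0.86). Slide row as a block moved the median to 0.04 for ER stress and 0.15 for heat shock genes, and reversed Hspa5 (0.06), Hsp90b1 (0.21), Dnajb11 (0.17), Dnajc3 (0.10), Sdf2l1 (0.04), Pdia6 (0.04), Eif2ak3 (0.06), Ddit3 (-0.04), Asns (0.16), Edem1 (0.05), Sel1l (0.01), Hspa8 (0.08), Hsph1 (0.22), Hsp90aa1 (0.10), Hsp90ab1 (0.00), Dnaja1 (0.02), Bag3 (0.21), Hspd1 (0.15), Hspe1 (0.19) and Hsf1 (0.05). Quantile normalization and the authors' value table each reversed Atf4 (-0.01), normexp reversed Bag3 (0.02), and the grouping of the heat map reversed Ern1 (-0.10), Atf6 (-0.10), Herpud1 (0.04), Dnajb1 (-0.11) and Bag3 (0.03). With 1 array left out, the range crossed 0 for Ern2 (-0.43 to 0.48), Atf6 (-0.06 to 0.11), Atf4 (-0.15 to 0.16), Ddit3 (-0.03 to 0.30), Dnajb1 (-0.04 to 0.09), Bag3 (-0.21 to 0.11), Hspd1 (-0.37 to 0.04) and Hspe1 (-0.29 to 0.03). Apart from the block, whose construction sets RG@M-γ-CD against PBS replicate 1 alone, the cause was not tested.

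At an unadjusted p of 0.05 the count of ER stress genes was 1, and 1 to 8 with 1 array left out (8 without PBS replicate 1, 2 with the first RG@M-γ-CD array left out); it was 2 with quantile normalization, normexp, the authors' value table and the filter on all 6 arrays, and 4 under the grouping of the heat map. That of heat shock genes was 1, and 0 to 3 with 1 array left out (3 with the first RG@M-γ-CD array left out, 0 with the third or any PBS array left out); it was 0 with quantile normalization, the authors' value table, the slide row and the methods' t-test, and 4 under the grouping of the heat map. An unadjusted limma p of 0.05 was passed by 2.20% of all genes under the labels and by 16.5% under the grouping of the heat map. The share of all genes is not given here for the other settings. Counts of members in those settings are therefore not read as results about the members. The deviations of samples with the same number from their group means had r of -0.25, -0.23 and 0.14 over genes. With 3 arrays per group these values cannot decide whether such samples were paired, and the labels do not say. The replicate block left 0 members past the adjusted threshold and gave 2 heat shock genes at an unadjusted limma p of 0.05. At the methods' threshold of fold 2 and p of 0.05, the methods' t-test called 45 genes, 0 of them members, and 0 after Benjamini-Hochberg adjustment. All members were well above background, but the levels of Trib3, Chac1, Hyou1 and Ddit3 were below 0 on every array. The differences of these dim members were smaller in size under normexp. Trib3 stood at -0.65 in place of -0.79, and Chac1 at -0.66 in place of -0.87. Hyou1 stood at -0.35 in place of -0.49, and Ddit3 at 0.14 in place of 0.16. The 3 arrays per group limit the size that could be called.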
